A study of Homo sapiens with 10 samples.

Results

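A set of 10 genes of the immediate-early response was followed by RNA-Seq in EA.hy926 clones, namely *FOS*, *FOSB*, *FOSL1*, *JUN*, *JUNB*, *EGR1*, *EGR3*, *IER2*, *DUSP1* and *ZFP36*. They were taken by gene symbol from the 27945 symbols of the deposited table, with the best expressed transcript for each symbol, and 9 of the 10 were among the 13333 genes abundant enough to be tested. *EGR3* was not. EA.hy926 is an established human cell line made by fusing umbilical vein endothelial cells with the A549 lung carcinoma line. The study asked what the loss of *VEGFA-LNC* or *VEGFC-LNC*, long noncoding RNAs next to *VEGFA* and *VEGFC*, did to the transcriptome. The cells grew in high-glucose medium with serum and were sampled without an added stimulus named in the labels. There were 3 homozygous clonal lines with the *VEGFA-LNC* promoter deleted by transfected Cas9-gRNA complexes, 3 with the *VEGFC-LNC* promoter deleted, and 2 control libraries for each deletion. Controls of both sets were EA.hy926 cells given the gRNAs without Cas9 and taken through the same selection of clones. Each deletion replicate is 1 clone, and the labels do not say whether both controls of a set came from separate cultures, so that p-values measure only the spread between these libraries.

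Immediate-early genes are transcribed within minutes of a growth factor, stress or calcium signal, without new protein synthesis, largely through transcription factors that are already present and are phosphorylated by ERK, p38 and JNK kinases. FOS and JUN proteins pair to form AP-1, EGR proteins are zinc finger factors that bind GC-rich sites, and DUSP1 and ZFP36 shut the response down by dephosphorylating the kinases and by destroying short-lived mRNAs. In endothelial cells the same genes respond to VEGF, to thrombin and to the onset of flow.

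The promoters of the genes that results turn on are shown for the motifs through which this response is read. The sequence lies before the transcript start on hg19, written 5′ to 3′ along the gene, and capitals mark matches to the CArG box (the site of serum response factor), to the cyclic AMP response element CRE (TGACGTCA) or to its core (TGACG, on the other strand CGTCA), which every CRE contains.
FOS, chr14:75745181-75745241, plus strand: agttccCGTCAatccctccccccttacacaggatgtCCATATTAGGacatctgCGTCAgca
FOSB, chr19:45970923-45971003, plus strand: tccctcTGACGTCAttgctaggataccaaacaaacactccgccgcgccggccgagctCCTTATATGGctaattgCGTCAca
EGR1, chr5:137800746-137800816, plus strand: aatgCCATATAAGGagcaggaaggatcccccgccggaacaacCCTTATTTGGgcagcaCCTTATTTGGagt
EGR1, chr5:137801031-137801106, plus strand: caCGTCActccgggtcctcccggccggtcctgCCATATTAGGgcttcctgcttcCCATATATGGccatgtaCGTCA
DUSP1, chr5:172198303-172198373, minus strand: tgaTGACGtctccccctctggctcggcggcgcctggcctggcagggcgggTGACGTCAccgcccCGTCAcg

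In the 500 bases before the transcript start, the CArG box matched in 3 of the 10 genes, with 1 match in *FOS*, 1 in *FOSB* and 5 in *EGR1*, and in 2.22% of the windows of the 13333 tested genes. The CRE matched in *FOSB* and *DUSP1* and in 2.75% of all windows, and its core in 8 of the 10 genes and in 37.9% of all windows. Matches to the AP-1 site (TGACTCA or TGAGTCA, 5.72% of all windows) and to the EGR site (GCGGGGGCG or GCGTGGGCG, 9.8%) were found in 0 of the 10 windows. Both strands were searched. This 500-base window, from which the printed stretches come, was added after seeing the data. The RefSeq window that follows was the planned one. In RefSeq promoters on GRCh38.p14, from 250 bases before to 50 after the start, 8 of the 10 genes had an entry, and the CArG box matched in 1 of the 8 (1.29% of 27305 windows), the CRE in 1 (1.98%) and its core in 7 (25%). The AP-1 site (4.92%) and the EGR site (5.7%) matched in 0 of the 8. A match describes the letters of the window and not an occupied site.

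Library sizes, as recovered from the values, ran from 6743976 to 24197637 reads. Whether these are reads in genes or all mapped reads is not given. FPKM is a read number divided by transcript length and by library size, a level per length. Both libraries of a control set lay close together, with a chi-square per degree of freedom between them of 3.89 in the *VEGFA-LNC* set and 1.56 in the *VEGFC-LNC* set, where 1 is sampling noise alone, against 19.7 to 147 between clones. Of 10 endothelial markers 9 were tested and 0 were called in any comparison, where 0.473% to 12.7% of all tested genes were called. This does not show equal levels, as single markers spread widely between clones. Among the *VEGFA-LNC* clones *PECAM1* ran from 13.9 to 159 FPKM and *VWF* from 0.65 to 8.78 FPKM. *CDH5* (56.6 to 312 FPKM) and *ENG* (215 to 545 FPKM) were high in every library, *KDR* lay at 0.036 to 1.39 FPKM and *CLDN5* at 0. The epithelial keratins *KRT8* (95.2 to 348 FPKM) and *KRT18* (101 to 436 FPKM) were also high, while *EPCAM*, *CDH1* and *KRT19* reached at most 0.505 FPKM. No row bearing the name of either lncRNA was used here, so that the deletions themselves were not checked.

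Upon *VEGFA-LNC* deletion, *FOS* and *DUSP1* were downregulated, 3.17-fold and 1.84-fold. They were 2 of 9 tested genes, where 2.75% of all tested genes were called in either direction and 2.02% lower, and 0 of the 9 were called higher, against 0.735%. A gene was called where its values differed by 1.5-fold or more (FC, fold change) at a false-discovery rate (FDR) under 0.05, in limma on log2(FPKM + 0.1) with Benjamini-Hochberg adjustment over all tested genes. *EGR1* and *FOSB* averaged 4.64-fold and 2.44-fold lower but did not pass the FDR threshold. *FOS*, *FOSB*, *EGR1* and *DUSP1* lay below both controls in all 3 clones, 4 of 9 genes, as did 23.7% of all tested genes. In 39% of all tested genes clones and controls did not overlap in either direction, and in 15.3% all clones lay above both controls. The median log2 FC was −0.35 over the 9 genes and −0.06 over all tested genes.

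*FOS*, the founding partner of JUN in AP-1, is listed as NM_005252 at chr14:75745481-75748937 on the plus strand. It was expressed at 3.82 and 3.602 FPKM in the *VEGFA-LNC* controls, at 1.06, 1.18 and 1.07 FPKM in the *VEGFA-LNC* deletion clones, at 1.22 and 0.845 FPKM in the *VEGFC-LNC* controls and at 0.726, 0.553 and 1.24 FPKM in the *VEGFC-LNC* deletion clones. Only the *VEGFA-LNC* controls stood apart, and the other 3 groups overlapped. The means were 3.71 ± 0.156 FPKM (SD, n = 2) in the *VEGFA-LNC* controls and 1.11 ± 0.0685 FPKM (SD, n = 3) in their clones, a log2 FC of −1.66 (SE 0.30, limma FDR 0.0281). Behind these levels stand 143 and 175 reads for the controls, and 34 to 47 for each clone. In RNA from whole cultures, fewer cells with a transcript and less of it per cell cannot be told apart.

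*FOSB*, a close relative that also pairs with JUN proteins, is listed as NM_006732 at chr19:45971253-45978437 on the plus strand. It was found at 2.04 and 1.80 FPKM in the *VEGFA-LNC* controls, at 0.606, 0.489 and 1.25 FPKM in their deletion clones, at 0.475 and 0.460 FPKM in the *VEGFC-LNC* controls and at 0.438, 0.10 and 0.472 FPKM in the *VEGFC-LNC* deletion clones. The *VEGFA-LNC* clones lay below their controls, as in 23.7% of all tested genes, and the 2 *VEGFC-LNC* groups overlapped. The lowest *VEGFA-LNC* clone, with 34 reads, was only just above the higher *VEGFC-LNC* control, with 17 reads, at 0.489 against 0.475 FPKM. The share of all tested genes that lay apart between those groups was not determined. The log2 FC upon *VEGFA-LNC* deletion was −1.29 (SE 0.50, limma FDR 0.198), with the third clone closest to the controls.

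*FOSL1* encodes FRA-1, the FOS-family subunit that stays expressed in many growing cells, and is listed as NR_125339 at chr11:65659607-65667997 on the minus strand. The prefix NR marks a transcript annotated as noncoding. It was the highest of 6 listed transcripts of the gene, whose means ran from 57.7 to 66.2 FPKM. *FOSL1* was at 96.7 and 73.4 FPKM in the *VEGFA-LNC* controls, at 108, 45.5 and 63.7 FPKM in their clones, at 70.6 and 65.1 FPKM in the *VEGFC-LNC* controls and at 42.0, 46.5 and 50.2 FPKM in the *VEGFC-LNC* deletion clones. The *VEGFA-LNC* clones lay on both sides of their controls, while the 3 *VEGFC-LNC* clones were below all 4 controls. In 30.6% of all tested genes the *VEGFC-LNC* clones were below their own controls. Neither deletion gave a called difference, with a log2 FC of −0.31 (limma FDR 0.637) and of −0.56 (limma FDR 0.349).

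*JUN*, the subunit that can pair with itself or with FOS proteins, is listed as NM_002228 at chr1:59246463-59249785 on the minus strand. It was at 98.0 and 93.7 FPKM in the *VEGFA-LNC* controls, at 89.5, 91.2 and 97.4 FPKM in their clones, at 63.9 and 59.1 FPKM in the *VEGFC-LNC* controls and at 55.2, 79.7 and 75.0 FPKM in the *VEGFC-LNC* clones. Every *VEGFA-LNC* library, deletion or control, was above every *VEGFC-LNC* library. Of all tested genes, 49.2% had the *VEGFC-LNC* controls below the *VEGFA-LNC* controls, and 18.8% the *VEGFC-LNC* clones below the *VEGFA-LNC* clones. The share with all libraries so ordered was not determined. The log2 FC upon *VEGFA-LNC* deletion was −0.05 (limma FDR 0.902), with a 95% confidence interval from −0.42 to 0.32.

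*JUNB*, a JUN protein with weaker activation and a role in differentiation, is listed as NM_002229 at chr19:12902310-12904125 on the plus strand. It was at 18.02 and 17.3 FPKM in the *VEGFA-LNC* controls, at 5.93, 24.3 and 18.2 FPKM in their clones, at 9.18 and 8.82 FPKM in the *VEGFC-LNC* controls and at 9.75, 10.4 and 15.3 FPKM in the *VEGFC-LNC* clones. The first *VEGFA-LNC* clone had the lowest level of all libraries and the second the highest. Its log2 FC upon *VEGFA-LNC* deletion was −0.35 (limma FDR 0.750) and was 0.25 without the first clone.

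*EGR1*, a zinc finger factor induced by serum and VEGF, is listed as NM_001964 at chr5:137801181-137805004 on the plus strand. It was at 15.4 and 11.9 FPKM in the *VEGFA-LNC* controls, at 2.51, 2.03 and 4.44 FPKM in their clones, at 2.39 and 2.09 FPKM in the *VEGFC-LNC* controls and at 1.40, 0.086 and 1.56 FPKM in the *VEGFC-LNC* clones. The *VEGFA-LNC* controls were above all other libraries and the *VEGFC-LNC* clones below all others. Of all tested genes, 23.7% had the *VEGFA-LNC* clones below their controls and 30.6% the *VEGFC-LNC* clones below theirs. The share with this whole order of groups was not determined. Reads numbered 837 and 839 in the *VEGFA-LNC* controls, 117, 117 and 242 in their clones, and 98, 5 and 33 in the *VEGFC-LNC* clones. The log2 FC upon *VEGFA-LNC* deletion was −2.21 (SE 0.83, limma FDR 0.190). Without the second *VEGFC-LNC* clone, the library with 5 reads, the same log2 FC had a limma FDR of 0.0206.

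*EGR3*, an EGR factor that mediates VEGF responses in endothelial cells, had 3 listed transcripts on chromosome 8 and was at or near 0 in every library. The recovered reads were 2 and 0 in the *VEGFA-LNC* controls, 1, 0 and 2 in their clones and 0 in the 5 *VEGFC-LNC* libraries. A count of 0 allows up to 3 reads, which stand for 0.0317 to 0.114 FPKM depending on the library, in counting error only. No difference in *EGR3* was detectable at this depth.

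*IER2*, a small nuclear protein of the immediate-early response, is listed as NM_004907 at chr19:13261282-13265718 on the plus strand. It was at 39.6 and 39.1 FPKM in the *VEGFA-LNC* controls, at 32.4, 51.7 and 34.6 FPKM in their clones, at 48.2 and 46.8 FPKM in the *VEGFC-LNC* controls and at 55.6, 56.7 and 46.9 FPKM in the *VEGFC-LNC* clones. Clones lay on both sides of or among their controls in both sets. The log2 FC was −0.02 (limma FDR 0.963) upon *VEGFA-LNC* deletion and 0.15 (limma FDR 0.680) upon *VEGFC-LNC* deletion.

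*DUSP1*, the nuclear phosphatase that switches off p38, JNK and ERK, is listed as NM_004417 at chr5:172195093-172198203 on the minus strand. It was at 44.6 and 49.9 FPKM in the *VEGFA-LNC* controls, at 24.1, 27.8 and 25.0 FPKM in their clones, at 15.0 and 15.2 FPKM in the *VEGFC-LNC* controls and at 16.7, 24.7 and 18.1 FPKM in the *VEGFC-LNC* clones. The *VEGFA-LNC* controls were highest and the *VEGFC-LNC* controls lowest, with both sets of clones in between. The means were 47.3 ± 3.75 FPKM (SD, n = 2) and 25.6 ± 1.94 FPKM (SD, n = 3) in the *VEGFA-LNC* controls and clones, a log2 FC of −0.88 (SE 0.17, limma FDR 0.0361). An annotated noncoding gene lies over *DUSP1* on the opposite strand, as *ERCC1* does over *FOSB* and *HOOK2* over *JUNB*. Noncoding genes also lie over *IER2* and *EGR3* on the opposite strand. The strand setting of the deposited values is not given in the sources used here.

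*ZFP36* encodes tristetraprolin, which binds AU-rich mRNAs and speeds up their decay, and is listed as NM_003407 at chr19:39897487-39900052 on the plus strand. It was at 7.04 and 3.598 FPKM in the *VEGFA-LNC* controls, at 5.54, 10.1 and 9.24 FPKM in their clones, at 6.39 and 7.59 FPKM in the *VEGFC-LNC* controls and at 3.52, 5.01 and 6.36 FPKM in the *VEGFC-LNC* clones. Relative to their mean, its *VEGFA-LNC* controls had the widest spread of either control set among the 9 tested genes, with a coefficient of variation of 45.8%. The log2 FC of 0.66 upon *VEGFA-LNC* deletion (limma FDR 0.359) was the 1 positive value among the 9 genes.

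**Figure D1:**
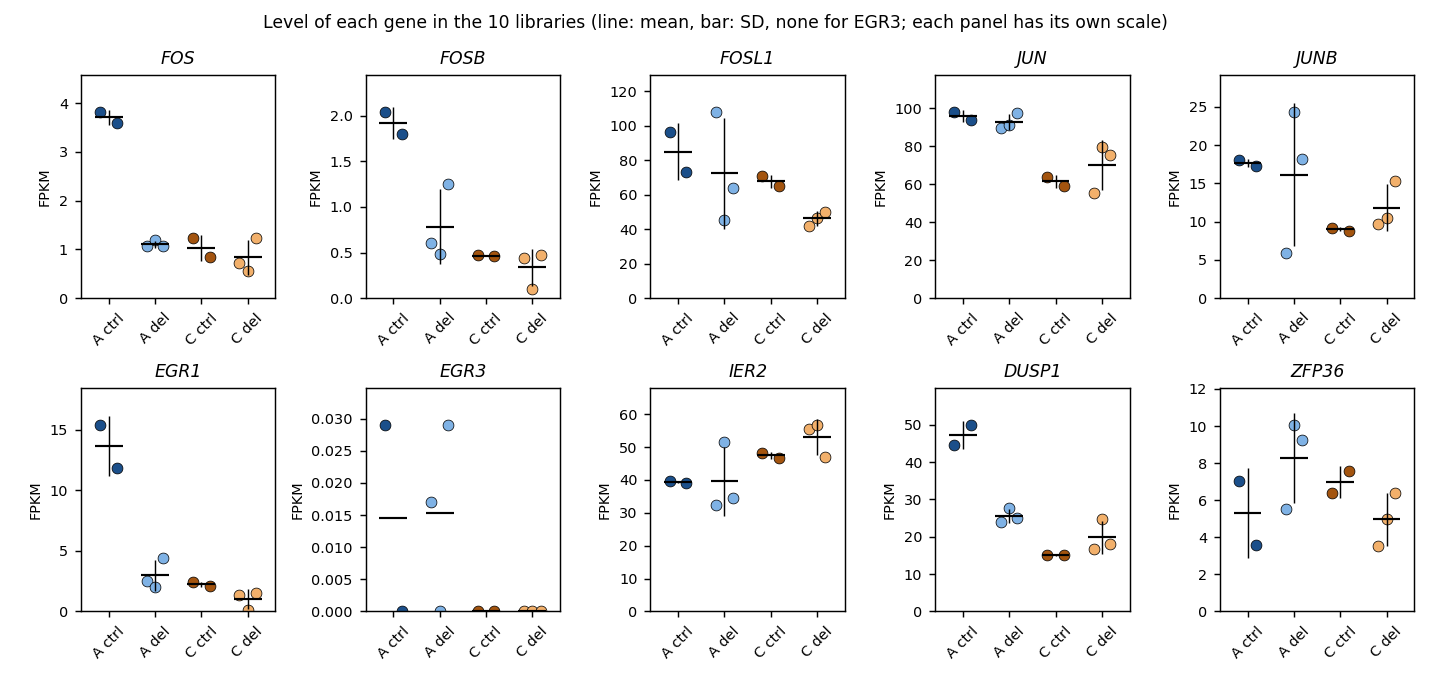
FPKM of each gene (vertical axis, linear, own scale in each panel) in the *VEGFA-LNC* controls (A ctrl), *VEGFA-LNC* deletion clones (A del), *VEGFC-LNC* controls (C ctrl) and *VEGFC-LNC* deletion clones (C del). Points are libraries, lines are group means and bars are SDs, with no bar for *EGR3*. The *VEGFA-LNC* controls stand above the other groups for *FOS*, *FOSB*, *EGR1* and *DUSP1*.

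The calls of *FOS* and *DUSP1* rested on few libraries. With all 4 controls as 1 group the log2 FC was −0.78 for *FOS* (limma FDR 0.517) and −0.07 for *DUSP1* (limma FDR 0.957), since in both genes all 3 *VEGFA-LNC* clones lay within the range of the 4 controls. With each control pair averaged and counted as 1 sample, 0 of the 9 genes and 0 of all tested genes were called in limma, and 834 genes had an unadjusted p under 0.05. Both calls were lost when either *VEGFA-LNC* control, either *VEGFC-LNC* control, or the second or the third *VEGFA-LNC* clone was left out, with a limma FDR of 0.0610 to 0.279 for *FOS* and of 0.0632 to 0.350 for *DUSP1*. Over all fits that left out a library the log2 FC ranged from −1.71 to −1.62 for *FOS* and from −0.96 to −0.80 for *DUSP1*. With 3 clones and 2 controls, the smallest two-sided p of an exact permutation test is 0.2.

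Since each deletion is read against its own controls, both control sets were also compared with each other. *DUSP1*, *FOS* and *JUN* were called lower in the *VEGFC-LNC* controls, 3.11-fold, 3.41-fold and 1.56-fold. They were 3 of 9 tested genes, where 12.7% of all tested genes were called in either direction, 9.76% lower and 2.92% higher. The log2 FC was −1.63 for *DUSP1* (SE 0.19, limma FDR 0.0040), −1.77 for *FOS* (SE 0.33, limma FDR 0.0146) and −0.64 for *JUN* (SE 0.18, limma FDR 0.0475). *EGR1* averaged 5.83-fold lower (limma FDR 0.0969) and *FOSB* 3.55-fold lower (limma FDR 0.0586). In 7 of the 9 genes both *VEGFC-LNC* controls were below both *VEGFA-LNC* controls, as in 49.2% of all tested genes, and in *IER2* both were above, as in 33.7%. Over both directions 82.9% of all tested genes did not overlap between the control sets. The median log2 FC of the 9 genes was −0.96, against −0.11 over all tested genes.

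This comparison shares the *VEGFA-LNC* controls with that of the *VEGFA-LNC* deletion, so that both effects contain the same 2 libraries. The log2 FC of *FOS* was −1.66 in the clones and −1.77 in the other controls, that of *EGR1* −2.21 and −2.54, that of *FOSB* −1.29 and −1.83 and that of *DUSP1* −0.88 and −1.63. Scaling the libraries by their median of ratios moved the median of all tested genes from −0.11 to −0.0043 between the control sets and from −0.14 to 0.00014 between the clones, and in the former it turned the share of higher genes among those called from 23.0% to 39.3%. With that scaling *DUSP1* and *FOS* stayed called between the control sets at −1.53 and −1.66, while *JUN*, at −0.53, had a limma FDR of 0.106. *DUSP1* lost its call without the second *VEGFA-LNC* control or the first *VEGFC-LNC* control, *FOS* without any 1 of the 4 controls, and *JUN* kept it only without the first *VEGFA-LNC* clone or the first or the second *VEGFC-LNC* clone. Without the second *VEGFC-LNC* clone *EGR1* (limma FDR 0.00840) and *FOSB* (limma FDR 0.0264) were called too, and without the first *VEGFA-LNC* clone *JUNB* (limma FDR 0.0165) and *FOSB* (limma FDR 0.0396). With each control pair averaged, 0 genes were called and 1224 had an unadjusted p under 0.05. What differs between the control sets besides the gRNAs is not given in the labels, and the gRNAs cannot be told apart from the handling of a set.

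Upon *VEGFC-LNC* deletion, 0 of the 9 genes were called in limma, and 0 had an unadjusted p under 0.05. Of all tested genes, 0.473% were called in either direction (0.323% lower and 0.15% higher) and 2508 had an unadjusted p under 0.05. *EGR1* had the lowest log2 FC, −1.59 (SE 0.83, limma FDR 0.326), which became −0.56 without the second clone. *DUSP1* averaged 19.8 ± 4.32 FPKM (SD, n = 3) in the clones and 15.1 ± 0.144 FPKM (SD, n = 2) in the controls, a log2 FC of 0.37 (SE 0.17, limma FDR 0.290). The 3 clones were below both controls in *FOSL1*, *EGR1* and *ZFP36* (3 of 9 genes, against 30.6% of all tested genes) and above both in *JUNB* and *DUSP1* (2 of 9, against 17.2%), where 47.8% of all tested genes did not overlap in either direction. *FOS* was at −0.32 (limma FDR 0.572) with a 95% confidence interval from −1.002 to 0.37, and *FOSB* was at −0.52 (limma FDR 0.572). The other values were 0.17 for *JUN*, 0.36 for *JUNB* and −0.52 for *ZFP36*, none past the threshold. The median log2 FC was −0.32 over the 9 genes and −0.09 over all tested genes.

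**Figure D2:**
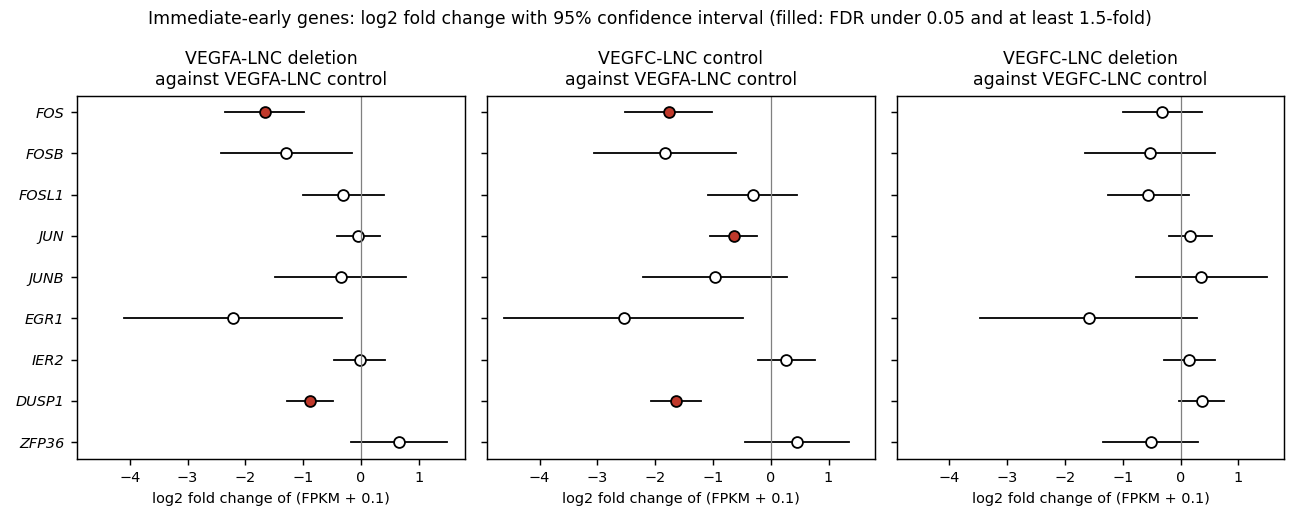
Log2 fold change of FPKM + 0.1 (horizontal axis) for the 9 tested genes, with the 95% confidence interval from limma, upon *VEGFA-LNC* deletion (left), between the control sets (middle) and upon *VEGFC-LNC* deletion (right). Filled points had an FDR under 0.05 and at least a 1.5-fold change: 2 genes on the left, 3 in the middle and 0 on the right.

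Subtracting the log2 FC upon *VEGFC-LNC* deletion from that upon *VEGFA-LNC* deletion gave a called difference for *DUSP1* alone of the 9 genes, at −1.25 (SE 0.24, limma FDR 0.0478), where 1.46% of all tested genes were called in either direction, 0.863% lower and 0.593% higher. Its effects were −0.88 and 0.37, and the difference rests on both control sets as well as on the clones. The call was lost with the median of ratios (limma FDR 0.0638) and with control pairs averaged (limma FDR 0.877), and it held only without the first *VEGFA-LNC* clone or the first or the second *VEGFC-LNC* clone among the 10 fits that left out a library. For *FOS* the difference was −1.34 (SE 0.43, limma FDR 0.150), for *ZFP36* 1.18 (SE 0.51, limma FDR 0.266), and for *EGR1* −0.62 (SE 1.17, limma FDR 0.807).

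When the *VEGFC-LNC* clones were compared with the *VEGFA-LNC* clones directly, without any control, 0 of the 9 genes were called in limma, where 7.46% of all tested genes were called in either direction, 5.84% lower and 1.62% higher, and 5 of the 9 had an unadjusted p under 0.05, as did 3464 of all tested genes. *EGR1* averaged 3.79-fold lower (limma FDR 0.143), *FOSB* 2.09-fold lower (limma FDR 0.172) and *JUN* 1.34-fold lower (limma FDR 0.108) in the *VEGFC-LNC* clones, and in these 3 genes every *VEGFC-LNC* clone was below every *VEGFA-LNC* clone, as in 18.8% of all tested genes. The opposite held for 0 of the 9 and for 5.42% of all tested genes, and 24.2% did not overlap in either direction. *DUSP1* (log2 FC −0.39, limma FDR 0.155) and *FOS* (−0.42, limma FDR 0.371) overlapped between the clones. *IER2* was at 0.45 (limma FDR 0.147), and at 0.66 and called without the second *VEGFA-LNC* clone (limma FDR 0.0245). *JUNB* was at −0.25 (limma FDR 0.778), and at −0.85 and called without the first *VEGFA-LNC* clone (limma FDR 0.0244). The median log2 FC was −0.42 over the 9 genes and −0.14 over all tested genes.

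The levels per length showed which AP-1 subunits these cells transcribed. *FOSL1* made up 56.9% to 76.8% of the summed FPKM of the FOS family, and *FOSL2*, which encodes FRA-2, 22.1% to 41.0%. *FOS* accounted for 0.736% to 3.21% and *FOSB* for 0.133% to 1.60%. The share of *FOS* was 2.81% and 3.21% in the *VEGFA-LNC* controls, 0.754% to 1.48% in their clones, 0.969% to 1.31% in the *VEGFC-LNC* controls and 0.736% to 1.46% in the *VEGFC-LNC* clones, so that only the *VEGFA-LNC* controls stood apart. Of the JUN family, *JUN* made up 57.6% to 81.3%, *JUND*, the subunit least dependent on a stimulus, 13.3% to 33.8%, and *JUNB* 5.39% to 16.2%. The highest shares of *JUND* were those of the *VEGFC-LNC* controls, at 32.1% and 33.8%. The summed level was 65.4 to 141 FPKM for the FOS family and 85.8 to 150 FPKM for the JUN family. Shares of mRNA do not give the shares of protein.

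**Figure D3:**
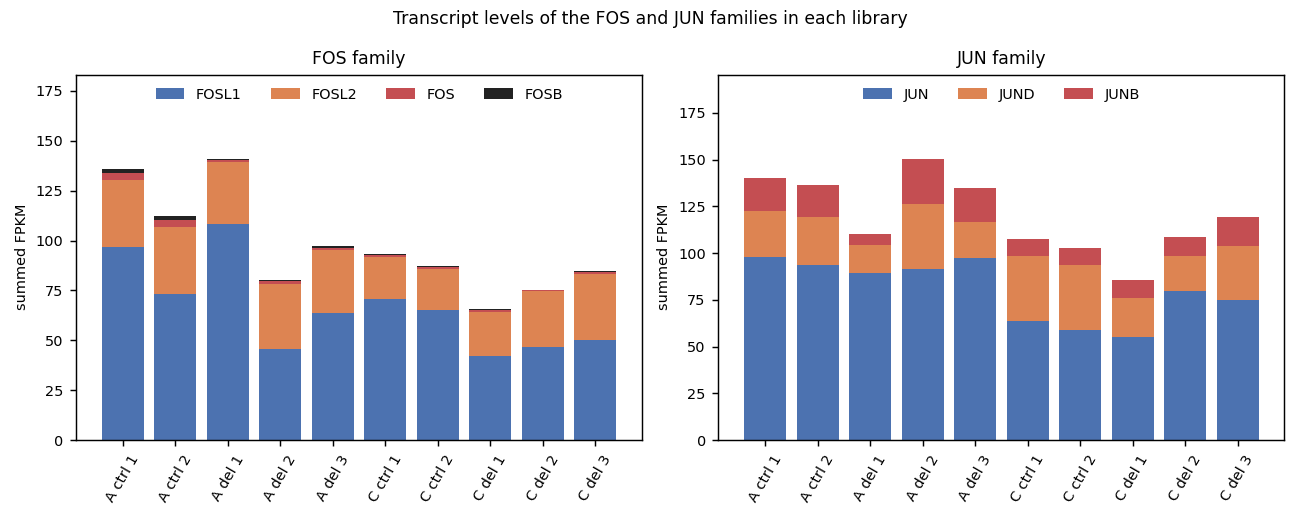
Stacked FPKM (vertical axis, linear, from 0) of the FOS family (left) and the JUN family (right) in each of the 10 libraries, named by set (A for *VEGFA-LNC*, C for *VEGFC-LNC*), control or deletion, and replicate. *FOSL1* and *FOSL2* fill nearly the whole FOS bar, and *FOS* reaches at most 3.21% of it.

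Among the other AP-1 subunits, 11 of 13 were tested, and *ATF3* and *CREB5* were downregulated upon *VEGFA-LNC* deletion, with a median log2 FC of the list of −0.22. *ATF3*, a stress-induced factor that pairs with JUN, was at 85.1 and 87.5 FPKM in the *VEGFA-LNC* controls, at 10.2, 16.5 and 21.0 FPKM in their clones, at 4.51 and 4.36 FPKM in the *VEGFC-LNC* controls and at 11.0, 7.99 and 6.27 FPKM in the *VEGFC-LNC* clones. As in *FOS* and *DUSP1*, the *VEGFA-LNC* controls stood above every other library. Its log2 FC was −2.49 upon *VEGFA-LNC* deletion (SE 0.31, limma FDR 0.00794), −4.25 between the control sets (limma FDR 0.00137) and 0.87 upon *VEGFC-LNC* deletion (limma FDR 0.197). *CREB5*, a CRE-binding partner of JUN, was low throughout, at 0.241 and 0.258 FPKM in the *VEGFA-LNC* controls and at most 0.058 FPKM elsewhere, with a log2 FC of −1.45 (limma FDR 0.0323). Between the control sets 6 of the 11 were called lower in the *VEGFC-LNC* controls and 0 called higher, *FOSL2* at −0.68 among them, and upon *VEGFC-LNC* deletion 0 were called. The shares to read these counts against are the 2.02%, 9.76% and 0.473% given above.

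Of 35 other immediate-early genes, all tested, 9 were called lower upon *VEGFA-LNC* deletion, against 2.02% of all tested genes, and 0 called higher, against 0.735%, with a median log2 FC of −0.56. This list, like the others here, was written with earlier results of these data known. The shares beside the counts thus describe the lists and do not test them. *PPP1R15A* (GADD34, which restarts translation after stress) was at −1.43 (limma FDR 0.00685), *SERTAD1* (a regulator of cyclin-dependent kinases) at −1.42 (limma FDR 0.00685), and *GADD45B* (an activator of stress kinases) at −2.14 (limma FDR 0.0145). *CCNL1* (a cyclin of splicing kinases, −1.02), *SGK1* (a serum-induced kinase, −1.44), *KLF4* (a zinc finger factor of quiescent endothelium, −1.43), *ARC* (−1.66), *PER1* (a clock repressor, −1.38) and *ID3* (an inhibitor of helix-loop-helix factors, −1.86) had a limma FDR of 0.0161 to 0.0490. *PPP1R15A* was at 107 and 96.1 FPKM in the *VEGFA-LNC* controls, at 36.3, 35.1 and 41.6 FPKM in their clones, at 19.5 and 20.6 FPKM in the *VEGFC-LNC* controls and at 19.4, 23.0 and 15.7 FPKM in the *VEGFC-LNC* clones. Its clones thus lay below their controls and above every *VEGFC-LNC* library. Between the control sets 18 of the 35 were called lower in the *VEGFC-LNC* controls, against 9.76% of all tested genes, and 0 called higher, with a median of −1.35. Upon *VEGFC-LNC* deletion 0 of the 35 were called, against 0.473% of all tested genes, and the median was 0.08. With all 4 controls as 1 group, 0 of the 35 were called upon *VEGFA-LNC* deletion, with a median of −0.07, and with control pairs averaged also 0. Leaving out 1 library gave 0 to 13 called lower.

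Upstream of the response act kinases and the factors they phosphorylate. Of 13 RAS-ERK cascade genes, 11 stress kinases and 6 genes of serum response factor and its partners, 0 were called upon either deletion. Of all tested genes 2.75% were called upon *VEGFA-LNC* deletion and 0.473% upon *VEGFC-LNC* deletion, so that 0 in lists this small is near those shares. The median log2 FC of the lists was −0.12, −0.05 and 0.17 upon *VEGFA-LNC* deletion, and −0.09, −0.11 and −0.08 upon *VEGFC-LNC* deletion. Between the control sets *MAP2K1*, the ERK kinase MEK1, and *MAP2K3*, a p38 kinase kinase, were called lower in the *VEGFC-LNC* controls. They were 1 of 13 and 1 of 11 genes of their lists, near the 9.76% of all tested genes called lower there. Among the values of largest size in these lists upon either deletion were those of *EGFR* (−0.75 and −0.52) for *VEGFA-LNC* and *VEGFC-LNC*, of *MAP2K6* (0.19 and −1.48) and *MAPK13* (−0.05 and −0.78), and of *MKL2* (0.25 and −0.86) and *ELK1* (0.31 and −0.18), none of them called.

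Of the feedback genes, 8 of 9 other MAPK phosphatases were tested and *DUSP8* and *DUSP10*, which act on JNK and p38, were called lower upon *VEGFA-LNC* deletion, 2 of 8 against 2.02% of all tested genes. *DUSP10* was at 7.20 and 7.16 FPKM in the *VEGFA-LNC* controls, at 2.04, 3.06 and 3.14 FPKM in their clones, at 1.22 and 0.835 FPKM in the *VEGFC-LNC* controls and at 1.99, 1.80 and 1.33 FPKM in the *VEGFC-LNC* clones. The order of the groups was that of *DUSP1*, with a log2 FC of −1.38 (limma FDR 0.0331) upon *VEGFA-LNC* deletion and 0.68 (limma FDR 0.225) upon *VEGFC-LNC* deletion. *DUSP8* was at −2.62 (limma FDR 0.0228), with 1.21 ± 0.0481 FPKM (SD, n = 2) in the *VEGFA-LNC* controls and 0.136 ± 0.122 FPKM (SD, n = 3) in their clones. Behind the latter stand only 1 to 20 reads a clone. The median log2 FC of the 8 was −0.36, and 3 were called lower between the control sets, against 9.76% of all tested genes, and 0 called upon *VEGFC-LNC* deletion. Of 6 Sprouty and SPRED inhibitors of RAS signalling 0 were called upon either deletion, with *SPRY1* at 1.81 (limma FDR 0.104) and *SPRY2* at −0.57 (limma FDR 0.297) upon *VEGFA-LNC* deletion. *SPRY2* was called lower between the control sets, 1 of 6 genes against 9.76% of all tested genes. The tested relatives of *ZFP36*, *ZFP36L1* (0.42) and *ZFP36L2* (0.96), were not called either. Of the EGR relatives and NAB co-repressors 3 of 5 were tested and 0 called upon either deletion, with *NAB1* at 0.42 and *WT1* at −0.38. *NAB2* was called lower between the control sets, 1 of 3 genes against 9.76%, and *EGR2* and *EGR4* did not pass the filter. Counts of 0 in these lists stand beside 2.75% of all tested genes called upon *VEGFA-LNC* deletion and 0.473% upon *VEGFC-LNC* deletion.

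Of 13 genes known as AP-1 targets 11 were tested, and 3 of them were called lower upon *VEGFA-LNC* deletion, against 2.02% of all tested genes. *HMOX1*, haem oxygenase, had a log2 FC of −2.33 (limma FDR 0.0313) upon *VEGFA-LNC* deletion and, not called, of 2.48 (limma FDR 0.0537) upon *VEGFC-LNC* deletion. Its mean was 143 ± 4.25 FPKM (SD, n = 2) in the *VEGFA-LNC* controls and 32.3 ± 17.98 FPKM (SD, n = 3) in their clones, and 11.7 ± 0.344 FPKM (SD, n = 2) in the *VEGFC-LNC* controls and 66.0 ± 9.80 FPKM (SD, n = 3) in theirs. *CD44*, the hyaluronan receptor, was at −1.12 (limma FDR 0.0145) upon *VEGFA-LNC* deletion and at 0.14 (limma FDR 0.652) upon *VEGFC-LNC* deletion. The median log2 FC of the 11 was −0.57, −1.72 between the control sets, where 6 were called lower against 9.76% of all tested genes, and 0.84 upon *VEGFC-LNC* deletion, where 1 was called higher against 0.15% and 0 lower. With all 4 controls as 1 group 0 of the 11 were called upon either deletion, with medians of 0.12 and −0.11.

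Of 8 genes known as EGR1 targets 0 were called upon either deletion, against 2.75% (*VEGFA-LNC*) and 0.473% (*VEGFC-LNC*) of all tested genes. Their medians were 0.03 and 0.38. *PTGES*, a prostaglandin E synthase, was at 1.145 and −2.39 and *PDGFB*, a platelet-derived growth factor chain, at 1.60 and 1.57, none of them called. Between the control sets *F3* and *THBS1* were called lower, 2 of 8 genes against 9.76% of all tested genes. Of 9 heat-shock genes, listed as a sign of stress, 0 were called in any comparison, against 0.473% to 12.7% of all tested genes. *HSP90AA1* was at −1.06 (limma FDR 0.186) and *HSPE1* at −0.89 (limma FDR 0.170) upon *VEGFC-LNC* deletion. The summed level of the 9 heat-shock genes was 1675 to 1730 FPKM in the *VEGFA-LNC* controls and 1627 to 2239 FPKM in their clones. It was 2175 to 2198 FPKM in the *VEGFC-LNC* controls and 1211 to 1878 FPKM in the *VEGFC-LNC* clones. The summed endothelial markers were at 818 to 852, 590 to 1213, 703 to 707 and 670 to 1179 FPKM in the same order, and the summed epithelial markers at 565 to 573, 254 to 784, 651 to 658 and 197 to 364 FPKM. The part of these differences in the levels of the immediate-early genes was not tested.

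**Figure D4:**
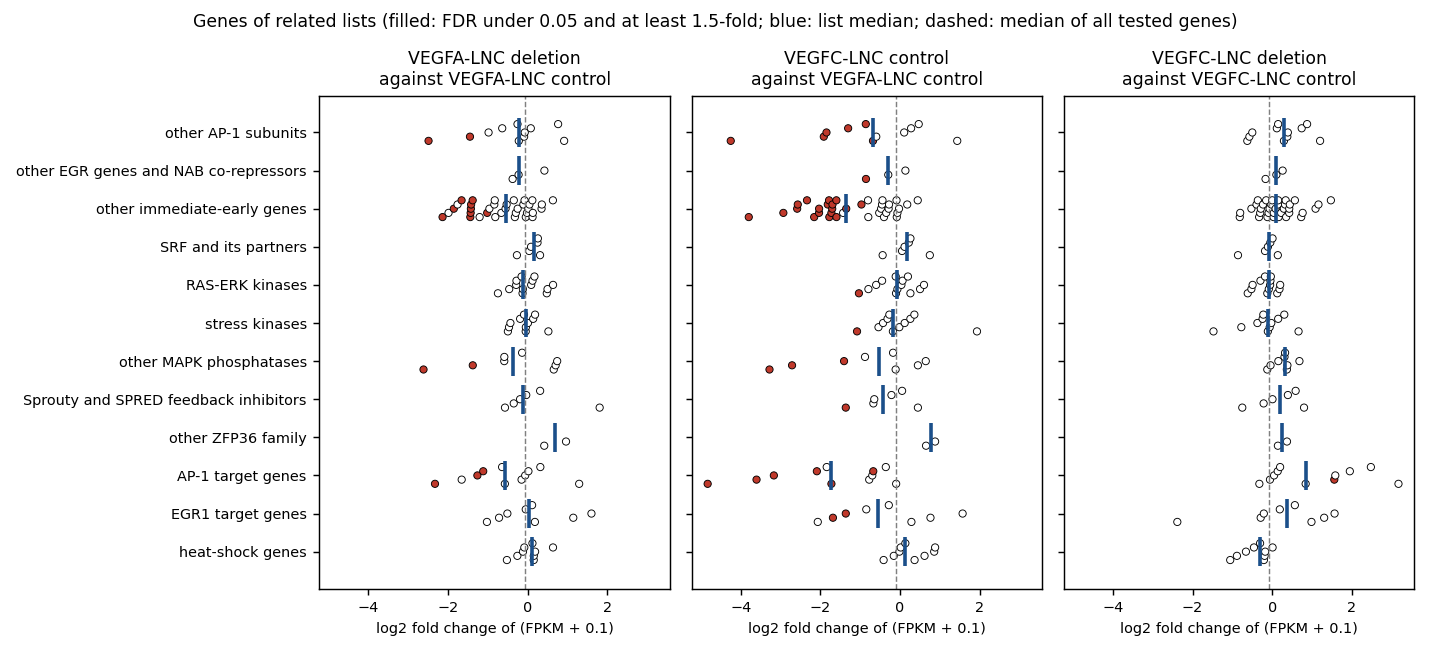
Log2 fold change of FPKM + 0.1 (horizontal axis) of every tested gene of 12 related lists (rows), upon *VEGFA-LNC* deletion (left), between the control sets (middle) and upon *VEGFC-LNC* deletion (right). Filled points were called, blue bars are list medians and the dashed line is the median of all tested genes. Of the other immediate-early genes, 9 of 35 are filled on the left, 18 in the middle and 0 on the right.

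Across the 10 libraries the levels of *FOSB* and *EGR1* ran closest together, with a Pearson r of 0.974 between their log2(FPKM + 0.1), followed by *FOS* and *EGR1* at 0.875, *FOS* and *FOSB* at 0.870 and *JUN* and *DUSP1* at 0.819. *FOSL1* and *IER2* ran opposite, at −0.819. These values describe 10 libraries that share their groups and depth. Among the 5 genes outside the list whose profile was most like the mean profile of the 9 were *CSRNP2* (r = 0.979), *PRSS35* (0.969) and *FEM1C* (0.964). The profile of *FOS* was most like those of *SPTAN1* (0.973), *SERPINE2* (0.966) and *NFX1* (0.957), and that of *EGR1* like those of *CAT* (0.986), *GYS1* (0.984) and *LRCH4* (0.980).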

How the data were processed

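RNA-Seq was performed by the authors on rRNA-depleted total RNA, with a strand-specific kit and single-end reads. Reads were trimmed with Trim Galore (0.4.4) and aligned to GRCh37 (hg19) with STAR (2.5.4b), and featureCounts is named in the submitters' processing notes. Deposited by the authors was a single table of 65572 RefSeq transcripts in FPKM. How it was made from the alignments, and with which strand setting, is not given in the sources used here. Length and library size are thus already divided out. The authors' own comparisons used edgeR on counts, which was not run here.

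Rows without a symbol (42) were left out, and 1 transcript per symbol was kept, that with the highest mean. Genes with FPKM times length in kilobases of at least 1 in at least 2 libraries were tested. Values were fitted as log2(FPKM + 0.1), which understates changes of low genes, in R (4.3.3) with limma (3.58.1), using lmFit, contrasts and eBayes with a trend, for 4 groups in 1 fit with 6 residual degrees of freedom. Library sizes were recovered from FPKM times length, at which at least 99.8% of the checked values were whole reads within rounding and 0.02 read. The fit was run on simulated reads with set changes and a common spread for all genes and groups. Clones that differ as these do were not simulated, so that this run does not test the calls given here. The genes of interest and all lists were chosen with earlier results of these data known. List genes named in the text were those called upon either deletion or, where a list had none, the 2 with the largest change; the values of some that met this rule or the likeness rule are not reported here. Motifs were searched in hg19 sequence and in RefSeq promoters (GRCh38.p14). Python (3.11.15) with pandas (2.3.3), numpy (2.4.6), scipy (1.17.1) and matplotlib (3.10.9) was used for the rest. Alternatives were a pseudocount of 1, no filter, median of ratios scaling, voom on recovered reads, the replicate number as a block, averaged control pairs, all 4 controls together, only the groups compared, the longest transcript, each library left out and, added after seeing the data, the hg19 promoter window.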

Additional observations from a re-analysis of the deposited data

Results flagged for a closer look

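The effects of the 2 deletions differed by limma's test of the difference itself for 8 of the genes named above, where 1.46% of all tested genes were called. Apart from *DUSP1*, these genes were named because they were called upon a deletion, which is itself part of the difference. Their number is thus not an independent result. The difference, the log2 FC upon *VEGFA-LNC* deletion minus that upon *VEGFC-LNC* deletion, was −1.25 for *DUSP1* (limma FDR 0.0478), −3.37 for *ATF3* (limma FDR 0.0122), −1.25 for *CD44* (limma FDR 0.0364), −2.06 for *DUSP10* (limma FDR 0.0354), −2.36 for *GADD45B* (limma FDR 0.0381), −4.81 for *HMOX1* (limma FDR 0.0120), −1.37 for *PPP1R15A* (limma FDR 0.0313) and −1.74 for *SERTAD1* (limma FDR 0.0150). Each difference contains both control sets, between which all 8 genes were called lower in the *VEGFC-LNC* controls. With control pairs averaged, 0 differences were called among all tested genes in limma, and 689 had an unadjusted p under 0.05. Groups of 2 and 3 libraries were too small to be searched for single outlying libraries.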

How the results depend on the processing

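Depth limits *EGR3* and, at 5 to 175 reads a library, *FOS*, *FOSB* and the lowest *EGR1* values. List genes are limited too, with 1 to 20 reads of *DUSP8* and 3 to 4 of *CREB5* in each *VEGFA-LNC* clone. *SPRY1* had 4 and 10 reads in the *VEGFA-LNC* controls, and *PTGES* had 0 to 4 in the *VEGFC-LNC* clones. The close control pairs and the distance between the control sets limit every call. Replicate numbers did not pair the samples (correlation of deviations −0.043 to 0.047), so that the replicate block is given here only.

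Of the 9 tested genes, 2 were called upon *VEGFA-LNC* deletion, and 1 with the median of ratios (*FOS*), 1 with the replicate block (*FOS*), and 0 with control pairs averaged, with all 4 controls or with only the groups compared. All genes called there were 367, and 616 without a filter, 551 with voom, 151 with the block, 0 with control pairs averaged, 29 with all 4 controls and 20 with only the groups compared. Upon *VEGFC-LNC* deletion 63 genes were called, and 20 with the block, 1 with control pairs averaged and 26 with only the groups compared. Between the control sets 3 of the 9 were called, and 5 with a pseudocount of 1 or with voom (*EGR1* and *FOSB* in addition) and 0 with control pairs averaged, where 0 of 1690 genes remained called. Between the clones 994 genes were called, and 589 without a filter and 45 with control pairs averaged. The difference between effects was called for 1 of the 9, and for 0 without a filter, with the median of ratios, with the block or with control pairs averaged. All genes called there were 194, and 452 without a filter, 86 with the block and 0 with control pairs averaged. Leaving out 1 library gave 0 to 3, 0 to 0, 0 to 5, 0 to 1 and 0 to 1 of the 9 genes and 6 to 1732, 5 to 1158, 33 to 3068, 415 to 1982 and 5 to 694 of all genes in these 5 comparisons. Without the first *VEGFA-LNC* clone 1732 genes were called upon *VEGFA-LNC* deletion, the highest count. A pseudocount of 1 gave *EGR1* a log2 FC of −1.91 upon *VEGFA-LNC* deletion (limma FDR 0.0303). Scaling by the median of ratios turned the share of higher genes among those called from 31.7% to 46.3% upon *VEGFC-LNC* deletion and from 21.7% to 42.5% between the clones. The CArG box matched in 1 gene and the CRE in 1 in the RefSeq window, and in 3 and 2 in the hg19 window. The cause of these moves was not tested.

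The sign turned upon *VEGFA-LNC* deletion for *JUN* (0.0046 with the median of ratios, 0.27 with all 4 controls), *JUNB* (0.13 with all 4 controls, −0.76 to 0.25 leaving out a library) and *IER2* (0.0287 with the median of ratios, 0.0592 with the block, −0.23 to 0.10 leaving out a library). Upon *VEGFC-LNC* deletion it turned with all 4 controls for *JUN* (−0.15), *JUNB* (−0.12), *DUSP1* (−0.45), *ATF3* (−1.25), *CD44* (−0.72), *DUSP10* (−0.67), *DUSP8* (−1.33), *GADD45B* (−1.24), *KLF4* (−0.67) and *SERTAD1* (−0.97), for *ID3* with the median of ratios (0.0674) and the block (0.0018), and for *PPP1R15A* with the median of ratios (0.0221). Leaving out a library it ranged from −0.0877 to 0.39 for *GADD45B*, −0.25 to 0.10 for *ID3* and −0.20 to 0.0753 for *PPP1R15A*, and elsewhere from −0.0158 to 0.93 for *ZFP36* between the control sets, −0.85 to 0.15 for *JUNB* between the clones and −0.0897 to 0.53 for the *FOSL1* difference. The *CREB5* difference was 0.40 with voom. Under the alternatives run, the other values of the 9 tested genes kept their sign. So did those of the 16 list genes called upon either deletion, outside the comparison between the clones. Their signs between the clones were not followed, nor were those of the list genes not called in any comparison.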
